A study of Mus musculus with 9 samples.

Results

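Potassium channel genes were examined in pancreatic islets of mice that lack *Raptor* in beta cells. A gene was counted as a member when its symbol in the array annotation followed the pattern of the Kcn family (Kcn, further letters, then a digit), when it was not *Kcnj11*, and when the mean log2 signal of its brightest single-gene probe set over all 9 arrays was at least 7. Of 83 matching genes 27 reached this level, out of 18193 genes with a single-gene probe set. Not all 27 are channels themselves: 6 encode auxiliary subunits of voltage-gated channels, *Kcnmb2* encodes a regulatory subunit, and *Kcnq1ot1* is a non-coding antisense RNA of the imprinted *Kcnq1* region.

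The mutant group (KO, 4 arrays) held islets of βRapKO mice, which were *Raptor* flox/flox and expressed Cre under the promoter of the rat insulin gene (RIP-Cre). The control group (WT, 5 arrays) held islets of *Raptor* flox/flox littermates without Cre, so that the floxed alleles were common to both groups while the RIP-Cre transgene was in the KO mice alone. All mice were males of 8 weeks, labelled C57BL/6, and the methods give the Cre line a mixed genetic background and the floxed line that of C57BL/6J. Each array was hybridised with RNA pooled from the islets of 5 animals, and Cre acts in the insulin-expressing cells of an islet, so its other cells keep *Raptor*. Effects of the transgene itself cannot be told apart from those of the deletion.

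Potassium channels set the resting potential of a beta cell and end its electrical bursts. The ATP-sensitive channel of *Kcnj11* and *Abcc8* closes when glucose is metabolised, the membrane depolarises, and calcium entry through voltage-gated channels triggers insulin release. Voltage-gated and calcium-activated potassium channels then repolarise the membrane, two-pore domain channels carry background currents, and auxiliary subunits tune the channels they bind. Raptor, the scaffold of mTORC1, is not itself a part of this machinery.

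Values are log2 signals, given as mean ± SD over 4 KO and 5 WT arrays, and differences are KO minus WT with the standard error of the limma fit. A gene was called when its limma p, adjusted over all 13644 genes tested, was under 0.05. Signals of different probe sets are not a measure of relative transcript abundance. *Rptor*, the deleted gene, averaged 8.75 ± 0.32 in KO islets and 9.47 ± 0.21 in WT islets (-0.72 ± 0.17, limma adjusted p = 0.041). This call held in 7 of 18 other fits and in 2 of the 9 that left out 1 array (without KO replicate 3 or WT replicate 4; adjusted p 0.02 to 0.115 over the 9), and with the probe sets of the gene averaged the difference was -0.16 (limma adjusted p = 0.888). The arrays had medians between 6.85 and 7.05 in KO and between 6.87 and 7.02 in WT islets, and the number of arrays limits the precision.

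The mean of beta cell markers was lower and that of stromal markers higher in KO islets. As background for the counts below, 3.67% of all genes tested were called higher and 2.63% lower. Lists with 1 call are too small to compare with these shares. The mean log2 signal of 8 beta cell markers was 13.23 to 13.42 in KO arrays and 13.84 to 14.02 in WT arrays, and 5 of the 8 were called lower. Those called were *Slc2a2* (-1.33), *Nkx6-1* (-0.95), *Ucn3* (-0.85), *Slc30a8* (-0.79) and *Pdx1* (-0.62). The paper also describes reduced expression of these called genes in mutant islets. *Ins2* (-0.053) and *Iapp* (-0.12) were not called and had overlapping groups, and *G6pc2* (-0.24) was not called without overlap. The 15 stromal markers, genes of fibroblasts, pancreatic stellate cells and pericytes, averaged 9.35 to 9.89 in KO arrays and 8.10 to 9.04 in WT arrays, with 7 of 15 called higher and 0 lower. Endothelial (11 markers, 9.36 to 9.69 in KO arrays and 9.08 to 9.30 in WT arrays), ductal (4 markers, 7.34 to 8.06 in KO arrays and 6.14 to 7.24 in WT arrays) and delta cell means (3 markers, 12.77 to 13.17 in KO arrays and 12.38 to 12.70 in WT arrays) did not overlap between the groups either, and 0, 0 and 1 of their markers were called, the 1 higher. Of the delta cell markers *Hhex* (0.84, called) and *Rbp4* (0.56, not called) were higher, while *Sst* differed by -0.039 with overlapping groups. For these 5 cell types exact two-sided permutation tests over all splits of the 9 arrays gave p = 0.00794 (beta, endothelial, delta) and p = 0.0159 (stromal, ductal), which are 0.0291 and 0.0349 after Benjamini-Hochberg adjustment over 11 cell types. Alpha (4 markers, 0.16), PP (2 markers, -0.038), smooth muscle (5 markers, 0.38, 1 called higher), Schwann and glial (4 markers, 0.10, 1 called higher), macrophage (7 markers, 0.22, 1 called higher) and acinar means (6 markers, -0.51) overlapped. None of these markers lay at the floor of the scale on any array. The part of these shifts in the differences below was not tested. In pooled islet RNA fewer cells of a type, less RNA per cell and altered expression of single markers cannot be told apart.

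Of the 27 potassium channel genes 5 differed between KO and WT islets. *Kcnk1*, *Kcnh1* and *Kcne4* rose, and *Kcnf1* and *Kcnj12* fell. These 5 are 18.5% of the members, beside 6.3% of all genes tested and 7.24% of the 11004 genes with a mean of at least 7; 3.67% of all genes were higher and 2.63% lower, and among the bright ones 4.14% were higher and 3.1% lower. At an unadjusted limma p under 0.05 were 11 of the 27, beside 21.8% of all genes and 23.4% of the bright ones, and 7 also differed at least 1.5-fold, beside 9.18% and 8.16%. In 8 members (29.6%) all KO values lay on 1 side of all WT values, beside 12.5% of all genes tested and 14.2% of the bright ones. The median difference of the 27 was 0.080, close to the 0.040 of all genes, with 17 positive and 10 negative differences that ran from -1.36 (*Kcnf1*) to 0.86 (*Kcne4*). The level of 7 shaped this list. *Kcnf1* and *Kcnj12* passed it through WT islets alone, with KO means under 7, while the other 25 had means of at least 7 in both groups, so the counts are a description of the list and no support for a change of the family.

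**Figure D1:**
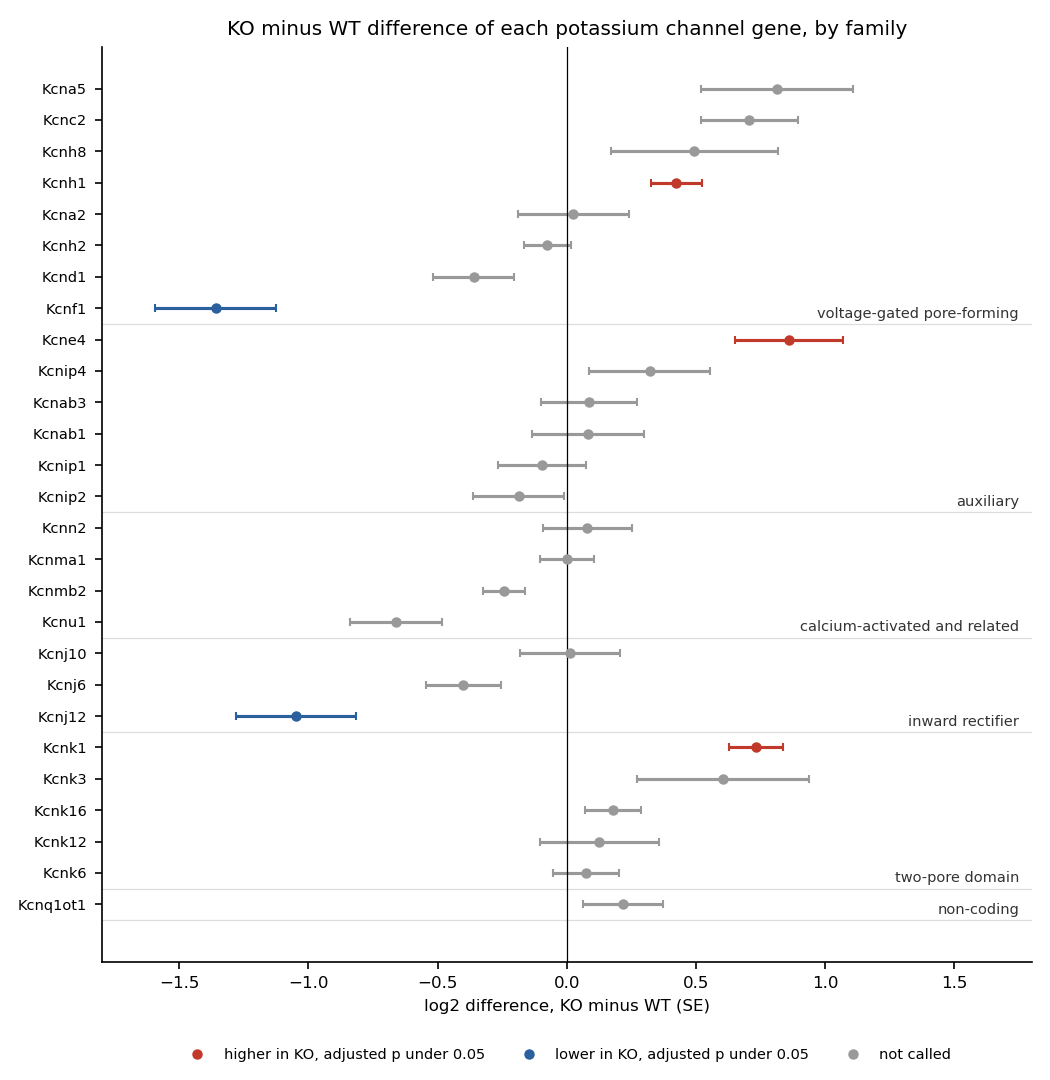
Log2 difference (KO minus WT, horizontal axis) of each of the 27 potassium channel genes with its SE as bar, grouped by family; red marks genes called higher, blue genes called lower, grey genes that were not called. *Kcnf1* at -1.36 and *Kcnj12* at -1.05 lie farthest to the left, and all 5 two-pore domain genes lie to the right of 0 in the values as deposited, though *Kcnk6* and *Kcnk12* fell below 0 under quantile normalization and gene-median centring.

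Two-pore domain channels, which carry potassium leak currents, had positive differences in all 5 members in the values as deposited. *Kcnk6* and *Kcnk12* were negative under quantile normalization and with arrays centred on the median of their genes. The test was passed by 1 of the 5, beside 6.3% of all genes tested, and 5 genes are too few to compare with that share. *Kcnk1* encodes TWIK-1, a channel of weak background currents that is found on the surface and in endosomes of many cells. It read 11.29, 11.15, 11.09 and 11.21 in the KO arrays, against 10.55, 10.21, 10.35, 10.62 and 10.54 in the WT arrays. Every KO array lay above every WT array, and the KO arrays spanned only 11.09 to 11.29. *Kcnk1* was 1.66-fold higher in KO islets (log2 difference 0.73 ± 0.10, limma adjusted p = 0.00606). The call held in each of the 9 fits that left out 1 array, and was lost with the probe sets of the gene averaged (0.75, limma adjusted p = 0.0508). *Kcnk16* encodes TALK-1, a channel best known from beta cells. Its groups overlapped, at 11.92 ± 0.068 in KO islets and 11.74 ± 0.19 in WT islets, and the 95% interval of its difference was -0.070 to 0.43 (limma adjusted p = 0.39). *Kcnk3*, the acid-sensitive channel TASK-1, read 9.20, 8.71, 8.33 and 9.28 in the KO arrays, against 8.40, 7.41, 8.95, 7.91 and 8.72 in the WT arrays. The spread within its groups was wide, with SDs of 0.45 in KO and 0.62 in WT islets, and the interval of -0.15 to 1.36 includes 0 as well as a difference larger than that of *Kcnk1* (limma adjusted p = 0.333). *Kcnk6*, which encodes TWIK-2, differed by 0.074 ± 0.13, and *Kcnk12*, whose product THIK-2 gives little current on its own, by 0.13 ± 0.23.

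Voltage-gated pore-forming subunits moved both ways. *Kcnf1* encodes Kv5.1, a subunit that is silent alone and modifies the Kv2 channels with which it assembles. It read 6.63, 6.03, 7.04 and 6.65 in the KO arrays, against 7.53, 7.72, 8.07, 8.44 and 7.97 in the WT arrays. All KO values were below all WT values. *Kcnf1* was 2.56-fold lower in KO islets (-1.36 ± 0.23, limma adjusted p = 0.0121), the difference farthest from 0 among the members, and its call held in each fit that left out 1 array. With a KO mean of 6.59 it passed the level of 7 through WT islets alone, so its fall and its rank are a description. *Kcnh1* encodes EAG1, a slow voltage-gated channel of neurons. It read 9.48, 9.81, 9.61 and 9.82 in the KO arrays, against 9.24, 9.12, 9.27, 9.28 and 9.38 in the WT arrays. The WT arrays were tight (SD 0.090), and the lowest KO array lay above the highest WT array. The rise was 1.34-fold (0.42 ± 0.099, limma adjusted p = 0.0405), close to the threshold. The adjusted p ran over 0.0461 to 0.103 when 1 array was left out, and the call was kept only without KO replicate 1 or WT replicate 5.

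Of the 6 other voltage-gated members none passed the test, and 5 of all 8 had an unadjusted limma p under 0.05. Over all genes tested 21.8% had such a p. *Kcnc2*, the fast Kv3.2 channel of rapidly firing neurons, read 8.60, 8.12, 8.39 and 8.57 in the KO arrays, against 7.75, 7.80, 8.09, 7.79 and 7.14 in the WT arrays. These groups did not overlap either, at a difference of 0.71 ± 0.19 (limma adjusted p = 0.0617). The call appeared without WT replicate 3 (limma adjusted p = 0.0479) and with a variance trend (limma adjusted p = 0.0405). *Kcna5*, the delayed rectifier Kv1.5 of atrial and vascular muscle, read 9.63, 9.26, 9.95 and 9.78 in the KO arrays, against 8.60, 8.19, 9.27, 8.52 and 9.63 in the WT arrays. Its WT arrays were spread over 8.19 to 9.63, and WT replicates 3 and 5 lay among the KO values (0.81 ± 0.29, limma adjusted p = 0.144; without WT replicate 5 1.01, limma adjusted p = 0.0529). *Kcnd1*, the transient A-type channel Kv4.1, averaged 7.85 ± 0.17 in KO islets and 8.21 ± 0.28 in WT islets (-0.36 ± 0.16, limma adjusted p = 0.218). *Kcnh2* encodes ERG1, which repolarises heart and islet cells. It averaged 10.23 ± 0.057 in KO islets and 10.31 ± 0.13 in WT islets, and the 95% interval of the difference, -0.28 to 0.13, was narrow. *Kcnh8*, of the ELK group, varied from 6.73 to 8.52 in WT islets and differed by 0.49 ± 0.32. *Kcna2*, the Kv1.2 channel of axons, differed by 0.026 ± 0.22.

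Among auxiliary subunits 1 of 6 passed the test, beside 6.3% of all genes tested, and 6 genes are too few to compare with that share. *Kcne4* encodes a single-pass membrane protein that inhibits KCNQ1 and some Kv1 channels. It read 7.94, 7.70, 7.75 and 8.15 in the KO arrays, against 6.72, 7.34, 7.51, 7.003 and 6.54 in the WT arrays. The lowest KO value was above the highest WT value. *Kcne4* was 1.82-fold higher in KO islets (0.86 ± 0.21, limma adjusted p = 0.0453), and it had 1 probe set. Its call was the least stable of the 5: over 9 fits without 1 array the adjusted p ran over 0.0271 to 0.115, and it passed only without WT replicate 3. The stromal marker mean given above was also higher in every KO array than in any WT array, and its part in this difference was not tested. The potassium channel interacting proteins bind Kv4 channels and slow their inactivation. *Kcnip1* (-0.095 ± 0.17), *Kcnip2* (-0.19 ± 0.18) and *Kcnip4* (0.32 ± 0.23) all overlapped between groups, with adjusted p of 0.81, 0.599 and 0.483. The cytoplasmic beta subunits of Kv1 channels, *Kcnab1* (0.081 ± 0.22) and *Kcnab3* (0.086 ± 0.18), overlapped too.

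Inward rectifiers, which pass potassium into the cell more easily than out of it, gave 1 call in 3 members. It was a fall in KO islets, beside 2.63% of all genes tested that were called lower. With 3 genes this share cannot be compared. *Kcnj12* encodes Kir2.2, a strong inward rectifier of heart, muscle and brain. It read 6.29, 7.15, 6.56 and 6.92 in the KO arrays, against 8.23, 8.09, 7.63, 7.64 and 7.31 in the WT arrays. All KO values were below all WT values. The difference of -1.05 ± 0.23 was a 2.07-fold fall (limma adjusted p = 0.034) and rests on 1 probe set. *Kcnj12*, with a KO mean of 6.73, also passed the level of 7 through WT islets alone, so its fall is a description. Without 1 array the adjusted p ran over 0.0261 to 0.0939, and the call was kept without KO replicate 2 or WT replicate 5. *Kcnj6* encodes GIRK2, which opens on signals from inhibitory receptors. It read 7.15, 7.10, 6.95 and 7.07 in the KO arrays, against 7.49, 7.85, 7.49, 7.06 and 7.45 in the WT arrays. WT replicate 4 lay among the KO values, and the difference of -0.40 ± 0.15 was not called (limma adjusted p = 0.146), except with arrays centred on the median of their genes (-0.56, limma adjusted p = 0.0439). *Kcnj10*, the glial channel Kir4.1, differed by 0.013 ± 0.19. For comparison *Kcnj11*, the pore of the ATP-sensitive channel that the list leaves out, averaged 9.96 ± 0.22 in KO islets and 9.69 ± 0.16 in WT islets (0.27 ± 0.13, limma adjusted p = 0.267).

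Genes of calcium-activated channels and their relatives gave no call by limma, although 2 of 4 had groups that did not overlap and 2 had an unadjusted p under 0.05. Over all genes tested these shares were 12.5% and 21.8%, and 4 genes are too few to compare with them. *Kcnma1*, the pore of the large-conductance BK channel that calcium and voltage open together, read 9.95, 10.00, 10.05 and 10.30 in the KO arrays, against 9.97, 9.94, 10.11, 10.14 and 10.23 in the WT arrays. The groups covered the same range, and the 95% interval of the difference was -0.24 to 0.24. *Kcnmb2* encodes a beta subunit that inactivates BK channels. It read 12.33, 12.12, 12.13 and 12.24 in the KO arrays, against 12.42, 12.56, 12.41, 12.38 and 12.46 in the WT arrays. All KO values were below all WT values, by a small margin and a small difference of -0.24 ± 0.082 (limma adjusted p = 0.119), which was called in 1 other fit, with arrays centred on the median of their genes (-0.40, limma adjusted p = 0.023). A second probe set of *Kcnmb2*, with a mean of 10.69, differed by -0.070 with overlapping groups (limma unadjusted p = 0.839). With its probe sets averaged the difference was -0.16 (limma adjusted p = 0.72). *Kcnu1* encodes SLO3, a relative of the BK pore known from sperm. It read 8.51, 9.44, 9.01 and 8.99 in the KO arrays, against 9.80, 9.77, 9.47, 9.75 and 9.45 in the WT arrays. The KO arrays were again all below the WT arrays (-0.66 ± 0.18, limma adjusted p = 0.0643). It was called without KO replicate 2 (limma adjusted p = 0.0349), in 1 of the 9 such fits, with a variance trend (limma adjusted p = 0.0235), with arrays centred on the median of their genes (-0.82, limma adjusted p = 0.0281) and with the dimmest 0.5 of the genes left out (limma adjusted p = 0.0243). *Kcnn2*, the small-conductance SK2 channel, differed by 0.080 ± 0.17, and the non-coding RNA *Kcnq1ot1* by 0.22 ± 0.15 (limma adjusted p = 0.465).

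**Figure D2:**
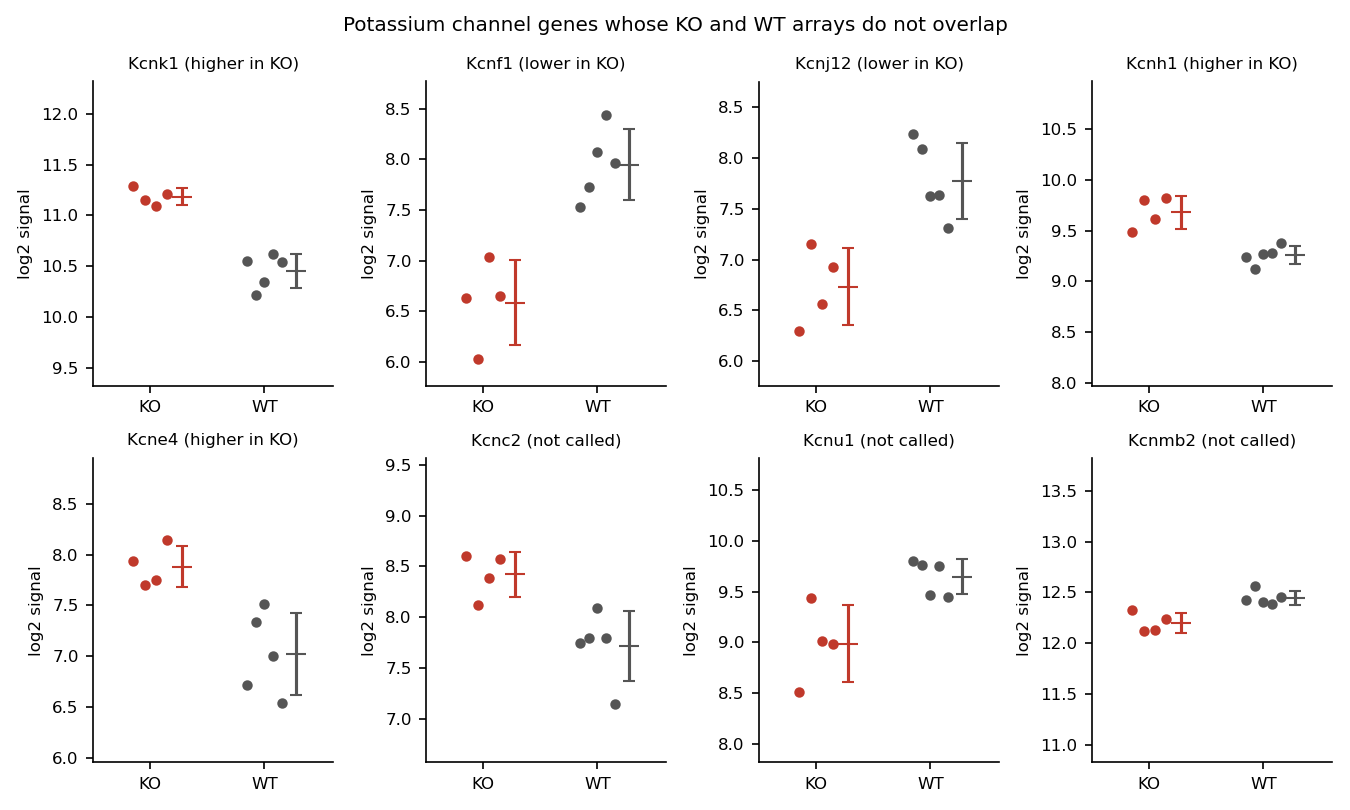
Log2 signal (vertical axes, each spanning 3 log2 units) of the 8 potassium channel genes whose groups did not overlap, in each KO (red, 4 arrays) and WT (grey, 5 arrays) array, with mean and SD beside the points. *Kcnk1* is above 11 in every KO array and under 11 in every WT array, while the gap of *Kcnmb2* is narrow.

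Further probe sets of the same genes gave a partial second reading. Of the 27 members 15 had more than 1 probe set, with 33 further ones, of which 13 had a mean of at least 7. In 24 of 33 the sign was that of the brightest probe set, 6 had an unadjusted p under 0.05, and 0 passed after adjustment over all 34945 probe sets (limma). The second *Kcnk1* probe set averaged 9.68 in KO and 8.92 in WT islets, a difference of 0.77 beside 0.73 for the first, but with overlapping groups. For *Kcnh1* the second probe set differed by 0.37 beside 0.42, and its groups overlapped too. For *Kcnf1* it differed by -2.36 at a dim 4.33 in KO and 6.68 in WT islets, with no overlap. Others disagreed. One bright probe set of *Kcnip1* differed by -0.83 (limma unadjusted p = 0.00969) and another by 0.28, and 4 further probe sets of *Kcnj6*, all with means under 6, had differences of 0.24, 1.47, 1.49 and 0.28, against the negative one of its brightest. The 5 probe sets of *Kcnma1*, all with means of at least 7, differed by -0.35 to 0.052.

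**Figure D3:**
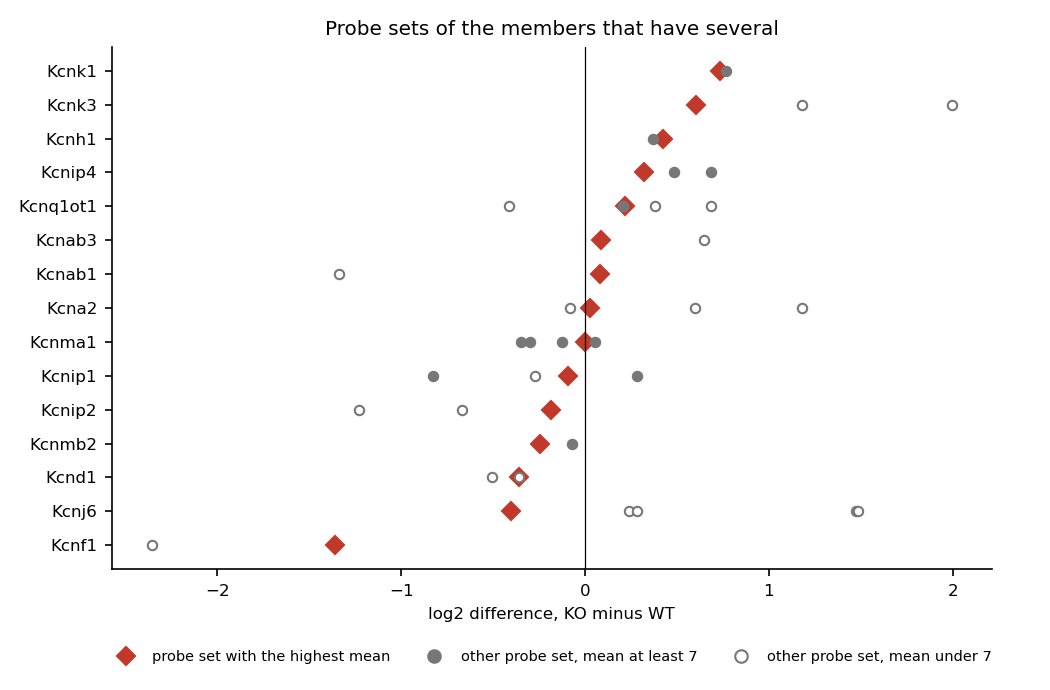
Log2 difference (KO minus WT, horizontal axis) of every probe set of the 15 members with more than 1; diamonds are the probe sets with the highest mean, filled circles others with a mean of at least 7, and open circles those under 7. The probe sets of *Kcnk1* and *Kcnh1* lie side by side, and those of *Kcnj6* lie on both sides of 0.

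The genes nearest the level of 7 were *Kcnj10* (7.14), *Kcnab1* (7.16) and *Kcnn2* (7.17) on the inside, and *Kcnj3* (6.95), *Kcna1* (6.93) and *Kcnj8* (6.92) on the outside. The 3 inside differed by 0.013, 0.081 and 0.080, and the 3 outside by 1.21, 0.99 and 0.62. Of the 56 matching genes under the level 25 were bright enough to be tested, and 5 of these (*Kcnj3*, *Kcna1*, *Kcnj8*, *Kcnd3* and *Kcnab2*) had a KO mean of at least 7 that the WT mean kept out. Among the 25, 3 (12%) were called, all higher in KO islets, beside 6.3% of all genes tested called and 3.67% called higher. *Kcna1*, the axonal channel Kv1.1, read 7.34, 7.65, 7.39 and 7.52 in the KO arrays, against 6.53, 6.74, 6.65, 5.94 and 6.58 in the WT arrays (0.99 ± 0.16, limma adjusted p = 0.0106). *Kcnj8* encodes Kir6.1, the pore of the ATP-sensitive channel of vascular muscle and pericytes. It read 7.39, 7.45, 6.98 and 7.25 in the KO arrays, against 6.67, 6.85, 6.30, 6.74 and 6.70 in the WT arrays (0.62 ± 0.14, limma adjusted p = 0.0366). The stromal marker mean above did not overlap between the groups, whereas the smooth muscle marker mean did. The part of either in the *Kcnj8* difference was not tested. *Kcnk2*, the stretch-sensitive channel TREK-1, averaged 6.87 ± 0.38 in KO islets and 5.45 ± 0.65 in WT islets (1.42 ± 0.33, limma adjusted p = 0.0411), with overlapping groups. The call of *Kcna1* held in 15 of 17 other fits, those of *Kcnj8* and *Kcnk2* in 3 of 17 each. *Kcnd3*, the A-type channel Kv4.3, did not pass (1.16 ± 0.29, limma adjusted p = 0.0506), and neither did *Kcnj3*, which encodes GIRK1 (1.21 ± 0.36, limma adjusted p = 0.085). *Kcnq1* (0.38 ± 0.63) and *Kcnn4* (1.82 ± 0.98) were dim, with WT means of 5.97 and 4.88, and *Kcnn3* lay below the filter at a mean of 3.43. The difference farthest from 0 among the 83 was that of *Kcnq3*, a subunit of the M-type channel, which was singled out after its values were seen and lay below the filter. It read 6.54, 6.72, 6.46 and 7.15 in the KO arrays, against 3.92, 2.33, 4.26, 2.97 and 3.50 in the WT arrays (3.32; limma adjusted p = 0.00543 in the fit without the filter), with all KO values above all WT values. The spread grew as the signal fell: the median SD was 0.20 in KO and 0.32 in WT islets among the members, against 0.76 and 1.07 among the 56 dimmer genes.

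**Figure D4:**
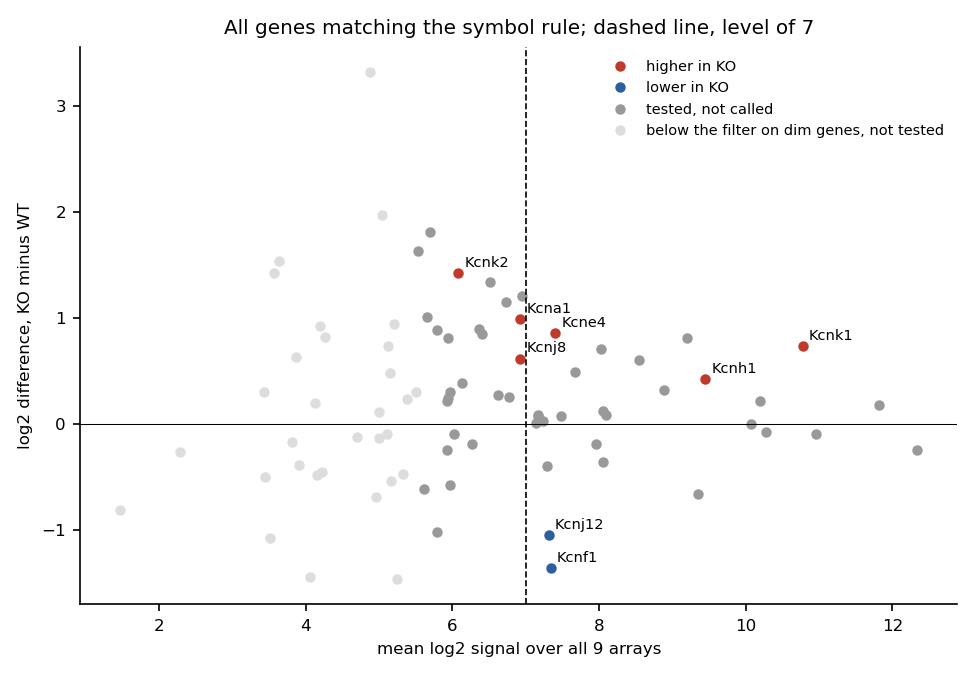
Mean log2 signal over all 9 arrays (horizontal axis) against the log2 difference KO minus WT (vertical axis) of the 83 genes that match the symbol pattern; the dashed line is the level of 7. Called genes are named, with *Kcna1*, *Kcnj8* and *Kcnk2* to the left of the line, and the differences fan out as the signal falls.

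Promoter sequence was read for the called members, to show the stretch just upstream of each gene whose transcript changed. RefSeq starts on GRCm38.p6 were held for 21 of the 27 members, and the 250 bases before the start were searched on both strands for 6 short motifs, none of which contains another: the TATA box (TATAAA), the CCAAT box (spelled as named), the GC box (GGGCGG), the E-box (CACGTG), the forkhead core (GTAAACA) and the cAMP response element (TGACGTCA). The 2 calls that held most widely and the 2 called genes with a match are shown, 5′ to 3′ on the strand of the gene, with matches in capitals. They are the risen *Kcnk1* (chr8:125994852-125995101, plus strand), *Kcnh1* (chr1:192190527-192190776, plus strand) and *Kcne4* (chr1:78816661-78816910, plus strand) and the fallen *Kcnf1* (chr12:17176889-17177138, minus strand).
Kcnk1: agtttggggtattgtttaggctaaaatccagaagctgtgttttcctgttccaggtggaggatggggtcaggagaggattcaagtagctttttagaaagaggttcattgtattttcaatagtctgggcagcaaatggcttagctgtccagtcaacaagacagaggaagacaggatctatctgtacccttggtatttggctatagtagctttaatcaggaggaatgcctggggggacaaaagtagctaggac
Kcnh1: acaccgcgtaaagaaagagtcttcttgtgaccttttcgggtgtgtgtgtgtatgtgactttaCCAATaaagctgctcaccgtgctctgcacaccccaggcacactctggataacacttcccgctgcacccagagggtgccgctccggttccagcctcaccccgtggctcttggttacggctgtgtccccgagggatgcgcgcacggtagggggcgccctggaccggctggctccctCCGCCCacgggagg
Kcne4: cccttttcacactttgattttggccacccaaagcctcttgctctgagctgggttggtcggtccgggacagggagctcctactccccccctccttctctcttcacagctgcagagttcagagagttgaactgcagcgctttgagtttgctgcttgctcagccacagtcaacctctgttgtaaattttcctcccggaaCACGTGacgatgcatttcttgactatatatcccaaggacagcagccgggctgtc
Kcnf1: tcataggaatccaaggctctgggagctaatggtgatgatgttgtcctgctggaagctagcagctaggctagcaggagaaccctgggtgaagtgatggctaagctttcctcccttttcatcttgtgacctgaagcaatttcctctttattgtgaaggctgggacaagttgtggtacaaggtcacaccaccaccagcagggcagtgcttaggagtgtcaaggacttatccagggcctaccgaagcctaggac

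The 3 promoters of risen genes shared none of these motifs. *Kcnh1* held 1 CCAAT box and 1 GC box (read on the other strand), *Kcne4* held 1 E-box, and *Kcnk1*, *Kcnf1* and *Kcnj12* held none of the 6 motifs. The 21 members had 30 promoters in the table, up to 4 for a gene. A CCAAT match was found in 33.8% of the 32851 promoters and in 9 of the 30, a GC box in 32.7% and in 11 of the 30, and an E-box in 6.02% and in 3 of the 30 (1 of *Kcne4* and 2 of *Kcnab1*). The TATA box, the forkhead core and the cAMP response element occurred in 12.4%, 3.17% and 1.55% of all promoters and in 0 of the 30. The bases G and C made up 44.4% of the *Kcnk1* stretch and 51.2% of that of *Kcnf1*, beside a median of 52.4% over all promoters. A match is a run of letters and not a measured binding site.

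Other genes of membrane excitability were counted from 4 lists. Over all genes tested 6.3% were called (3.67% higher, 2.63% lower), and 21.8% had an unadjusted limma p under 0.05. Among 17 measured voltage-gated calcium and sodium channel genes 1 fell and 1 rose: *Cacna1c*, the L-type pore Cav1.2, averaged 8.76 ± 0.16 in KO islets and 9.52 ± 0.14 in WT islets (-0.76 ± 0.11, limma adjusted p = 0.00631), and *Scn3b*, a beta subunit of sodium channels, 9.55 ± 0.22 in KO islets and 8.78 ± 0.19 in WT islets (0.77 ± 0.14, limma adjusted p = 0.0139). These calls held in 16 of 18 and 15 of 18 other fits and in each fit that left out 1 array, and both were lost with probe sets averaged (limma adjusted p = 0.0591 and 0.51). Among 9 measured genes of the sodium potassium pump, which builds the gradient that potassium channels use, 2 rose and 0 fell. Both are FXYD regulators of the pump, *Fxyd3* (0.53 ± 0.12, limma adjusted p = 0.0378) and *Fxyd7* (1.502 ± 0.33, limma adjusted p = 0.0339). Their calls held in 7 of 18 and 7 of 17 other fits, and both were lost without the filter on dim genes, with arrays centred on their medians and with probe sets averaged. Without 1 array *Fxyd3* stayed called in 3 of 9 fits (without KO replicate 2, WT replicate 3 or WT replicate 5; adjusted p 0.0304 to 0.109) and *Fxyd7* in 4 of 9 (without KO replicate 1, WT replicate 2, WT replicate 3 or WT replicate 5; adjusted p 0.0278 to 0.0881). Of 8 measured partners of potassium channels 5 were bright enough to be tested and 0 were called by limma, with 3 of the 5 at an unadjusted p under 0.05. *Dpp6*, which binds Kv4 channels, had the lowest p (0.99 ± 0.26, limma adjusted p = 0.0567), and *Abcc8*, the regulatory subunit of the ATP-sensitive channel, differed by -0.0075 ± 0.096. The 2 measured HCN channel genes, whose products pass sodium and potassium on hyperpolarisation, gave 0 calls and 0 unadjusted p under 0.05.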

How the data were processed

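Islet RNA of 8-week-old male mice was hybridised to 9 Affymetrix mouse expression arrays (4 KO, 5 WT), and groups and replicate numbers came from the sample titles. The authors deposited log2 signals per probe set, analysed in Genespring. How probes were summarised is not given in the sources used here. On the linear scale each array's mean after 2% trimming was 497.1 to 497.7, and between 43 and 107 values per array were at the floor of 0.

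Of 45037 probe sets 34945 had 1 gene in the platform annotation, 932 several and 9160 none here. Each gene was represented by its probe set with the highest mean, and the lowest 0.25 of 18193 genes was left out, leaving 13644. KO and WT values were compared, as deposited, with limma 3.58.1 (R 4.3.3; lmFit, then eBayes, without covariates, two-sided), and p-values were adjusted over the 13644 by Benjamini-Hochberg. Intervals are limma's 95% intervals, not adjusted. Whether pools shared litters or days is not stated. The scripts were tested on simulated data.

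The members, the 4 lists of excitability genes and the 11 lists of cell type markers were chosen with earlier results of these data known. Genes were named by a rule: every member called or without overlap, the member with the highest signal in each family, genes of known role, those next to the level of 7, and called genes of each list (for the partner list, which had none, the lowest p). The other members are given by their values, and *Kcnab2*, *Kcnk2*, *Kcnq3* and *Abcc8* were added after their values were seen. Some genes of the family were not analysed here. Promoters came from RefSeq (GRCm38.p6). Alternatives covered the filter, scaling, probe sets, variance trend, the t-test of the methods, the threshold, a replicate block, single arrays and the level of the rule.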

Additional observations from a re-analysis of the deposited data

How the results depend on the processing

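Of the 5 calls *Kcnf1* and *Kcnk1* held in 16 of 17 and 16 of 18 other fits, *Kcnj12* in 6 of 17, *Kcnh1* in 5 of 18 and *Kcne4* in 2 of 17, and none of the 5 changed sign. The number of member calls, 5 in the fit reported, with 3 higher and 2 lower, was 2 (1 higher, 1 lower) of 452 over all genes without the filter on dim genes, and 3 (2 higher, 1 lower) with the lowest 0.5 left out, which removed 15 members. It was 3 (1 higher) of 474 with arrays centred on their medians, 3 (1 higher) with quantile normalization, 1 (0 higher, 1 lower) of 322 with probe sets averaged, and 3 (1 lower) with the t-test of the methods. A variance trend gave more, 7 (4 higher, 3 lower) of 1260. Arrays centred on the median of their genes, added after the data were seen, gave 6 (1 higher, 5 lower) of 1402 and moved the median of all genes by -0.16. With it 22.8% of all calls were higher, against 58.3% in the fit reported, 45.1% with array medians and 47.3% with quantile normalization. A level of 6 gave 8 calls in 40 genes, and a level of 8 gave 2 in 16. Apart from the lowest 0.5 left out, where 12 members remained, the cause of these shifts was not tested.

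Without 1 array the member calls were 2 to 4 (1 to 3 higher, 1 to 3 lower), those of all genes 372 to 800, and the members' median difference 0.04 to 0.09. That median was -0.063 with quantile normalization and -0.078 with gene-median centring, below 0 in both. *Kcnk1* and *Kcnf1* were lost in the replicate block, where member calls were 0 (0 higher, 0 lower) of 61 over all genes, with 11 of 27 members at an unadjusted p under 0.05 (limma). WT replicate 5 has no KO array of its number, so this fit takes its differences from the 4 same-numbered pairs alone. It also leaves fewer residual degrees of freedom, and the part of this in the lost calls was not tested. Whether the replicate numbers pair the arrays cannot be told from 4 same-numbered pairs. Their deviations correlated at -0.04 to 0.12, over 0.1 in 1 of 4 pairs, beside -0.11 to 0.16 for pairs of different numbers. Of the 4 KO arrays 2 correlated best with their own number.

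Members near 0 changed sign. Under array medians *Kcna2* was -0.015 and *Kcnj10* -0.027. Under the median of the genes *Kcna2* was -0.13, *Kcnab1* -0.077, *Kcnab3* -0.072, *Kcnj10* -0.14, *Kcnk12* -0.033, *Kcnk6* -0.084 and *Kcnn2* -0.078. Under quantile normalization *Kcna2* was -0.14, *Kcnab1* -0.063, *Kcnab3* -0.064, *Kcnj10* -0.12, *Kcnk12* -0.029, *Kcnk6* -0.071 and *Kcnn2* -0.055. With probe sets averaged *Kcnab1* was -0.63 and *Kcnj6* 0.62. In the replicate block *Kcnma1* was 0.037. Without 1 array *Kcna2* ran over -0.11 to 0.16, *Kcnab1* -0.069 to 0.23, *Kcnab3* -0.048 to 0.19, *Kcnj10* -0.076 to 0.12, *Kcnk12* -0.014 to 0.29, *Kcnk6* -0.0017 to 0.14, *Kcnma1* -0.077 to 0.041 and *Kcnn2* -0.048 to 0.22. None of these values was called.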
